A study of Mus musculus with 20 samples.

Results

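The transcripts described here are those of 7 mouse genes that make NADPH in the cytosol or that belong to the pentose phosphate pathway next to those that do: G6pdx, Pgls, Pgd, Tkt, Taldo1, Me1 and Idh1. They were chosen by gene symbol, and all 7 were found among the 32285 genes of the table. RNA had been sequenced in 20 libraries from cancer-associated fibroblasts (CAFs), the fibroblasts of a tumour's stroma, here primary mouse cells that had been immortalised, with 5 libraries in each of 4 groups treated for 32 h. The EIPA group had 0.2 mM glutamine with 25 uM EIPA, a derivative of amiloride that blocks sodium-proton exchangers and, through them, the bulk uptake of fluid called macropinocytosis. The low-glutamine vehicle group had 0.2 mM glutamine with DMSO, the solvent of EIPA. The IL-1a group had 4 mM glutamine with DMSO and 25 pg/mL of the cytokine IL-1a, and the 4 mM vehicle group had 4 mM glutamine with DMSO. As the solvent of EIPA, DMSO is taken to be in every group, although the titles of the EIPA libraries do not name it. No group had EIPA at 4 mM or IL-1a at 0.2 mM. The labels name immortalised cells without saying how many lines or animals they came from, or whether the 5 replicates were separate cultures. Each p-value here covers only the spread between these libraries, which may be technical. In bulk RNA, a change in the kinds of cells present and a change in RNA per cell cannot be told apart.

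The pentose phosphate pathway takes glucose 6-phosphate away from glycolysis. In its oxidative arm, glucose-6-phosphate dehydrogenase (G6pdx) makes NADPH and a lactone, 6-phosphogluconolactonase (Pgls) opens the lactone, and 6-phosphogluconate dehydrogenase (Pgd) makes NADPH again while it releases ribulose 5-phosphate. In the reversible non-oxidative arm, transketolase (Tkt) and transaldolase (Taldo1) exchange carbon between pentose phosphates and glycolytic sugars, so that cells can make ribose or recycle it. Cytosolic malic enzyme (Me1) and cytosolic isocitrate dehydrogenase (Idh1) make NADPH without glucose 6-phosphate. NADPH is spent on fatty acid and sterol synthesis and on keeping glutathione and thioredoxin reduced, and several of these genes are known targets of the transcription factor NRF2, which binds the antioxidant response element, or of the sterol-regulated SREBP factors.

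The starts of 4 of the genes are shown because they allow their NRF2 element letters to be read beside the values that follow. Me1 and G6pdx held the letters. Pgd and Idh1, whose transcripts differed most between groups, did not in the windows shown, but a second Pgd window did. RefSeq (GRCm38.p6) had a promoter window for all 7 genes, 10 windows of 300 bases in all, from 250 bases before the start to 50 after it. The lines below give the 260 bases ending 10 bases after the start, on the gene's own strand. Capitals mark the letters TGACNNNGC on either strand, and a run without capitals had none.
Me1, chr9:86695905-86696164, minus strand: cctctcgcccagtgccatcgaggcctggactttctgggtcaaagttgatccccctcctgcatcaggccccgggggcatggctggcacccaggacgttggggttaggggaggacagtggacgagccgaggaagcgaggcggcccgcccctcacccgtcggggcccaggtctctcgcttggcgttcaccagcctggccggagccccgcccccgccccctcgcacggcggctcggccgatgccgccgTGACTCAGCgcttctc
G6pdx, chrX:74428871-74429130, minus strand: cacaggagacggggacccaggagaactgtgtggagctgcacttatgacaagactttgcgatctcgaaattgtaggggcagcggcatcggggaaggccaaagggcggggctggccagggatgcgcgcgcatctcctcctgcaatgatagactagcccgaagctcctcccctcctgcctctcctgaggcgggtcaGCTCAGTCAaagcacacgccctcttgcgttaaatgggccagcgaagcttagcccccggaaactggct
Pgd, chr4:149166696-149166955, minus strand: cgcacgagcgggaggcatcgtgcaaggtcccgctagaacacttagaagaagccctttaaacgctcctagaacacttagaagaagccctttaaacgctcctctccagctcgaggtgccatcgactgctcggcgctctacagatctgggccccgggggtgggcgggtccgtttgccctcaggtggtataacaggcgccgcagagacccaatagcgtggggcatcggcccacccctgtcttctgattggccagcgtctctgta
Idh1, chr1:65186470-65186729, minus strand: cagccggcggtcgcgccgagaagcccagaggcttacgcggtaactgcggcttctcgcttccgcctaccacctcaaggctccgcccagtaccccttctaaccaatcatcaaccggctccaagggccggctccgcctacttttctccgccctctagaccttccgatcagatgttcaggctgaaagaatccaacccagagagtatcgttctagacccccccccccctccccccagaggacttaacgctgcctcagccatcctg
In Me1 the match was TGACTCAGC, beginning at position -6 from the start, where the start itself is position 1. In G6pdx it lay on the opposite strand, as GCTCAGTCA at position -57. Another match stood in a second Pgd window with another start, at position 4. These letters occurred in 12.4% of all 32851 promoter windows of the table. The sterol response element letters TCACNCCAC, found in 1.24% of all windows, and the E-box letters CACGTG, found in 7.15%, were in none of the 10 windows, both strands being searched. CCAAT occurred in windows of Idh1, Pgd, Taldo1 and Me1, and in 37.4% of all windows. A match is a description of letters, and its absence covers only these windows.

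The values are TPM, transcript abundances which are scaled for gene length and to the same total in every library. Totals lay between 999999.47 and 1000000.84, so the sequencing depth is unknown. Fibroblast genes were abundant, with a mean of 1827 TPM for Col1a1 and 2415 TPM for Vim, but Fap averaged 0.0505 TPM. Ptprc of leukocytes averaged 0.0005 TPM, and Cd3e of T cells and Sox10 of Schwann cells were listed at 0 in all 20 libraries. The leukocyte list of 4 genes, nearly all of it the lysosomal Cd68, summed to 7.23 to 8.7 TPM in EIPA libraries, 1.95 to 2.62 TPM in low-glutamine vehicle libraries, 1.81 to 2.65 TPM in IL-1a libraries and 1.56 to 2.67 TPM in 4 mM vehicle libraries. Msln (89.2 TPM) and Wt1 (123 TPM) of mesothelium and the keratin Krt19 (176 TPM) were present, whereas Epcam of epithelium averaged 0.103 TPM. The summed fibroblast list of 10 genes lay at 2226 to 2528 TPM in EIPA libraries and at 3780 to 4595 TPM in low-glutamine vehicle libraries. It lay at 8459 to 9717 TPM in IL-1a libraries and at 9754 to 10389 TPM in 4 mM vehicle libraries. Genes of this list went in both directions with EIPA. Col1a1 averaged 262 and Vim 1533 TPM in EIPA libraries, against 675 and 2254 TPM in low-glutamine vehicle libraries. Pdpn averaged 204, Pdgfra 14.8 and Pdgfrb 15.1 TPM in EIPA libraries, against 95.8, 6.15 and 11.3 TPM in low-glutamine vehicle libraries. The mesothelial list of 3 genes summed to 94.3 to 186 TPM in EIPA libraries, 170 to 227 TPM in low-glutamine vehicle libraries, 321 to 482 TPM in IL-1a libraries and 351 to 528 TPM in 4 mM vehicle libraries. In the same order of groups, Msln differed little, with means of 83.9, 85.4, 94.6 and 93.0 TPM. Wt1 averaged 34.1, 67.7, 196 and 194 TPM, and Upk3b averaged 10.2, 36.7, 113 and 131 TPM. The part of these lists in the results was not tested. Among the libraries at 4 mM, IL-1a replicates 1 and 5 and vehicle replicate 5 stood apart, with Ccn1, a matricellular gene, at 200.76, 234.83 and 231.49 TPM against 378.74 to 598.59 TPM in the other 7. Without these 3 libraries the calls of the 7 genes between the glutamine levels and for IL-1a were the same.

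At 0.2 mM glutamine, 5 of the 7 transcripts were higher with EIPA than with vehicle, at 3.41 times the mean TPM for Idh1, 2.52 times for Pgd, 1.55 times for Tkt, 1.51 times for Taldo1 and 1.48 times for G6pdx. Pgls and Me1 did not pass the test. In vehicle, 6 of the 7 were lower at 0.2 than at 4 mM glutamine, down to 18.1% of the 4 mM mean for Idh1 and 30.4% for Pgd, and Pgls was higher. None of the 7 was called for IL-1a at 4 mM. The tests were limma on log2(TPM + 1) over 12350 genes, with Benjamini-Hochberg adjustment and a threshold of 0.05.

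**Figure D1:**
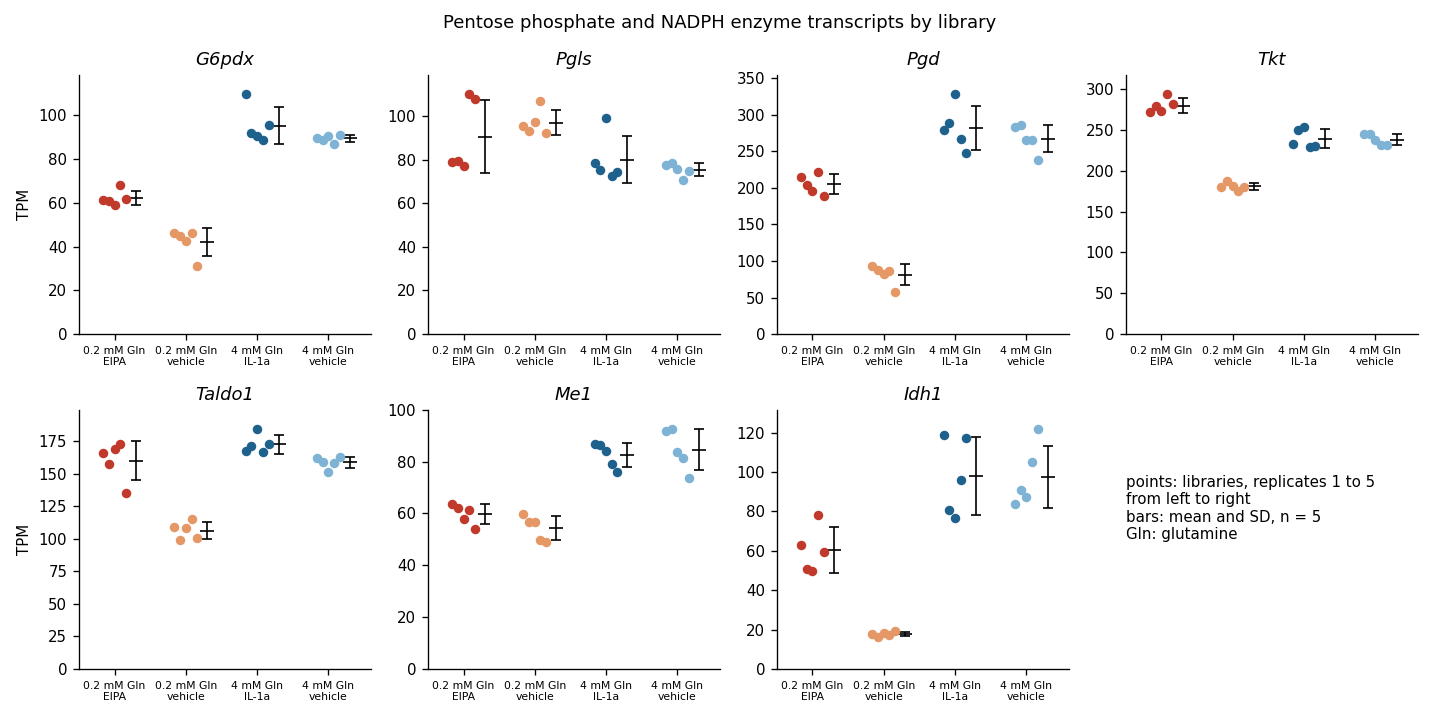
TPM of the 7 genes in each of the 20 libraries, with the mean and SD of each group of 5 beside the points, on axes that start at 0. Low-glutamine vehicle libraries are the lowest for G6pdx, Pgd, Tkt, Taldo1 and Idh1, and EIPA libraries reach the highest Tkt values, 272.16 to 293.94 TPM.

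The counts are to be read against those of all genes. In EIPA against vehicle, 27.4% of the 12350 genes were called higher and 21.1% lower, while 5 of the 7 were called higher and 0 lower. These shares are 3383 genes higher and 2603 lower, against 2912 and 2970 under median-of-ratios scaling and 2775 and 3131 with mitochondrially encoded genes left out, where the 5 were still called. In 0.2 against 4 mM glutamine, 45.4% of genes were called higher and 27.9% lower, while 1 of the 7 was higher and 6 were lower, also without the 3 libraries that stood apart. Median-of-ratios scaling gave 4385 genes higher and 4438 lower between the glutamine levels, where the main values gave 5606 and 3449. In IL-1a against vehicle, 35 genes or 0.283% were called in either direction, and 0 of the 7, also at an unadjusted p under 0.05. The median log2 fold change of the 7 was 0.58 for EIPA against 0.02 over all genes, 0.07 for IL-1a against 0.01, and -0.63 for glutamine against 0.14. Because the median gene lay 0.14 higher at 0.2 mM than at 4 mM, changes between the glutamine levels are also given relative to it, whereas the calls are those of the unshifted values. The EIPA and the glutamine comparisons share the low-glutamine vehicle libraries. Their values are therefore set side by side and not compared.

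In the oxidative arm, G6pdx, the step that commits glucose to the pathway (X:74409483-74429194, minus strand, GRCm38, ENSMUSG00000031400), had 61.32, 60.95, 59.12, 67.96 and 61.53 TPM in EIPA libraries. It had 46.09, 44.71, 42.52, 46.14 and 31.16 TPM in low-glutamine vehicle libraries. Every EIPA library was above every low-glutamine vehicle library, and replicate 5 of the vehicle was well below its group. The log2 difference was 0.56 ± 0.08 (SE; limma, adjusted p = 1.1e-05). IL-1a libraries had 109.76, 91.83, 90.48, 88.87 and 95.74 TPM, and 4 mM vehicle libraries had 89.72, 88.76, 90.51, 86.92 and 91.2 TPM. The ranges of the IL-1a and 4 mM vehicle libraries overlapped, and IL-1a replicate 1 was the highest of all 20. The IL-1a difference was 0.09 ± 0.08 on the log2 scale (limma, adjusted p = 1.0). G6pdx was lower at 0.2 than at 4 mM glutamine, with a log2 difference of -1.08 ± 0.08, or -1.22 relative to the median gene (limma, adjusted p = 2.2e-10). G6pd2, an autosomal retrogene copy of G6pdx in mouse, was listed at 0 in all 20 libraries, and reads that fit both copies make either level uncertain.

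Pgls, the lactonase between the NADPH-making steps (8:71592176-71601092, plus strand, ENSMUSG00000031807), was the member that was higher at low glutamine. It had 78.7, 79.28, 76.9, 110.09 and 107.57 TPM in EIPA libraries, against 95.24, 93.16, 97.17, 107.0 and 92.41 TPM in low-glutamine vehicle libraries. The EIPA libraries lay in 2 clumps, with replicates 1 to 3 below all vehicle libraries and replicates 4 and 5 above them, and the log2 difference of -0.12 ± 0.10 was not called (limma, adjusted p = 0.34; 95% interval -0.32 to 0.09). IL-1a libraries had 78.39, 75.43, 99.07, 72.65 and 74.18 TPM, and 4 mM vehicle libraries had 77.49, 78.56, 75.65, 70.79 and 74.79 TPM. The IL-1a libraries overlapped the vehicle libraries except for replicate 3, which was above them all. All 5 low-glutamine vehicle libraries were above the 4 mM vehicle libraries, by 0.36 ± 0.10 or by 0.22 relative to the median gene (limma, adjusted p = 0.0023). Under median-of-ratios scaling, which removes the shift of the median gene, that difference was 0.21 and was no longer called (adjusted p = 0.054).

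Pgd, the second NADPH-making dehydrogenase of the oxidative arm (4:149149991-149166771, minus strand, ENSMUSG00000028961), was called in the same comparisons as G6pdx. It had 215.19, 204.6, 196.05, 222.17 and 189.5 TPM in EIPA libraries, against 93.67, 87.21, 81.73, 86.56 and 57.87 TPM in low-glutamine vehicle libraries. The lowest EIPA library had more than the highest vehicle library by a wide margin. The log2 difference was 1.34 ± 0.10 (limma, adjusted p = 8.9e-10), and it ranked above 99.1% of all tested genes. IL-1a libraries had 278.65, 288.81, 328.43, 266.43 and 247.06 TPM, and 4 mM vehicle libraries had 283.01, 285.48, 264.93, 265.7 and 238.0 TPM. These ranges overlapped, and the log2 difference was 0.07 ± 0.10 (limma, adjusted p = 1.0; 95% interval -0.13 to 0.28). Pgd was lower at 0.2 than at 4 mM glutamine, with a log2 difference of -1.72 ± 0.10, or -1.86 relative to the median gene (limma, adjusted p = 3.3e-12).

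In the non-oxidative arm, Tkt, the transketolase that moves carbon in units of ketol groups (14:30548359-30574720, plus strand, ENSMUSG00000021957), was the most abundant of the 7 in the EIPA and low-glutamine vehicle groups. It had 272.16, 278.66, 272.73, 293.94 and 281.36 TPM in EIPA libraries, against 180.16, 187.66, 181.25, 174.7 and 180.14 TPM in low-glutamine vehicle libraries. The libraries within each group lay close together and the groups did not overlap, with a log2 difference of 0.63 ± 0.04 (limma, adjusted p = 6.9e-11). IL-1a libraries had 232.5, 250.1, 253.32, 229.58 and 230.27 TPM, and 4 mM vehicle libraries had 244.46, 245.15, 237.56, 231.7 and 231.56 TPM. These overlapped throughout, and the IL-1a difference was 0.01 ± 0.04 (limma, adjusted p = 1.0; 95% interval -0.07 to 0.09). Tkt was lower at 0.2 than at 4 mM glutamine, with a log2 difference of -0.40 ± 0.04, or -0.53 relative to the median gene (limma, adjusted p = 9.5e-09), to 75.9% of the 4 mM vehicle mean.

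Taldo1, the transaldolase of the same arm (7:141392199-141402968, plus strand, ENSMUSG00000025503), had 166.07, 157.48, 168.77, 173.06 and 135.13 TPM in EIPA libraries. It had 108.82, 98.85, 108.58, 114.9 and 100.37 TPM in low-glutamine vehicle libraries. The groups did not overlap, although EIPA replicate 5 was the lowest of its group, and the log2 difference was 0.58 ± 0.06 (limma, adjusted p = 6.7e-08). IL-1a libraries had 167.54, 171.68, 184.52, 166.39 and 172.92 TPM, and 4 mM vehicle libraries had 162.12, 159.31, 151.66, 158.03 and 162.53 TPM. All 5 IL-1a libraries were above all 5 vehicle libraries, but the log2 difference of 0.12 ± 0.06 was not called (limma, adjusted p = 0.83; 95% interval -0.00017 to 0.24). Taldo1 was lower at 0.2 than at 4 mM glutamine, with a log2 difference of -0.58 ± 0.06, or -0.71 relative to the median gene (limma, adjusted p = 1.5e-08).

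Me1, the cytosolic malic enzyme that makes NADPH from malate (9:86581371-86695953, minus strand, ENSMUSG00000032418), changed between the glutamine levels and was not called for EIPA. It had 63.61, 62.28, 57.88, 61.33 and 53.83 TPM in EIPA libraries, against 59.7, 56.59, 56.85, 49.82 and 48.9 TPM in low-glutamine vehicle libraries. The ranges overlapped, with a log2 difference of 0.14 ± 0.07 (limma, adjusted p = 0.11; 95% interval -0.0067 to 0.28). Without EIPA replicate 5 the difference was 0.17 and was called (adjusted p = 0.0496). With the replicate number added to the model, the difference of 0.14 was called as well (limma, adjusted p = 0.010), although the labels do not pair the libraries. IL-1a libraries had 86.88, 86.56, 84.1, 79.16 and 76.09 TPM, and 4 mM vehicle libraries had 91.81, 92.7, 83.6, 81.61 and 73.75 TPM. These overlapped, with a difference of -0.03 ± 0.07 (limma, adjusted p = 1.0). Me1 was lower at 0.2 than at 4 mM glutamine, with a log2 difference of -0.63 ± 0.07, or -0.77 relative to the median gene (limma, adjusted p = 5.4e-08). All 10 libraries at 0.2 mM were below all 10 at 4 mM.

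Idh1, the cytosolic isocitrate dehydrogenase (1:65158616-65186500, minus strand, ENSMUSG00000025950), varied the most of the 7 on the log2 scale. It had 63.06, 50.6, 49.71, 78.44 and 59.3 TPM in EIPA libraries, against 17.93, 16.04, 17.98, 17.26 and 19.22 TPM in low-glutamine vehicle libraries. The vehicle libraries were tightly grouped and far below the EIPA libraries, with a log2 difference of 1.69 ± 0.13 (limma, adjusted p = 2.1e-09) that ranked above 99.5% of tested genes. IL-1a libraries had 118.64, 80.63, 76.61, 95.76 and 117.52 TPM, and 4 mM vehicle libraries had 83.65, 90.71, 87.29, 104.91 and 122.04 TPM. The ranges overlapped, with a difference of -0.01 ± 0.13 (limma, adjusted p = 1.0; 95% interval -0.28 to 0.27). The 3 libraries that stood apart had the 3 highest values, and without them the difference was -0.12 (adjusted p = 1.0). Idh1 was lower at 0.2 than at 4 mM glutamine, with a log2 difference of -2.39 ± 0.13, or -2.53 relative to the median gene (limma, adjusted p = 1.9e-12). Without the 3 libraries it was -2.31.

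**Figure D2:**
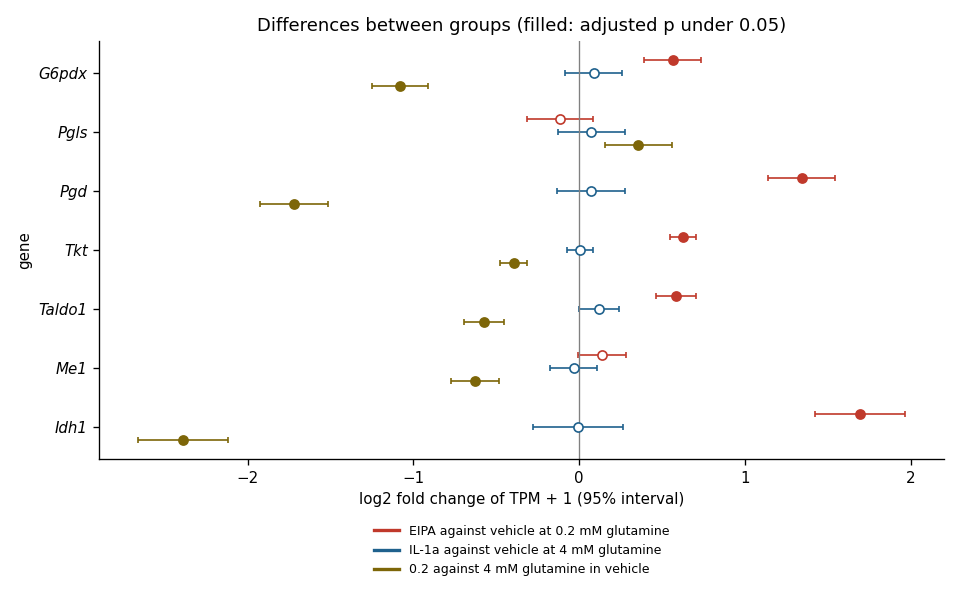
Log2 fold changes of TPM + 1 with their 95% intervals for the 7 genes in 3 comparisons, the first group named over the second, with filled points called at an adjusted p under 0.05. Idh1 and Pgd lie farthest from 0 for EIPA (1.69 and 1.34) and for glutamine (-2.39 and -1.72), and every IL-1a point is open.

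The share of TPM from mitochondrially encoded genes differed with the same groups. It was 5.69% ± 0.63 in EIPA libraries and 8.87% ± 0.28 in low-glutamine vehicle libraries, and 10.0% ± 0.51 in IL-1a libraries and 10.4% ± 1.17 in 4 mM vehicle libraries (SD, n = 5 each). With those genes left out and the rest rescaled, the EIPA differences were 0.52 for G6pdx, 1.29 for Pgd, 0.58 for Tkt, 0.53 for Taldo1 and 1.65 for Idh1, and all 5 were still called.

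The order of the 4 groups differed among the genes. For G6pdx, Pgd and Idh1 the low-glutamine vehicle mean was lowest, the EIPA mean came next and the means at 4 mM were highest. For G6pdx and Pgd there was no overlap until the last step, where the IL-1a and 4 mM vehicle libraries overlapped. For Idh1 those groups overlapped too, and EIPA replicate 4 (78.44 TPM) was above IL-1a replicate 3 (76.61 TPM). Means of Pgd were 206 ± 13.4 TPM in EIPA libraries, 81.4 ± 13.8 TPM in low-glutamine vehicle libraries, 282 ± 30.3 TPM in IL-1a libraries and 267 ± 19.0 TPM in 4 mM vehicle libraries (SD, n = 5 each). For Tkt the EIPA libraries were highest, with a mean of 280 ± 8.83 TPM, above IL-1a libraries (239 ± 11.6) and 4 mM vehicle libraries (238 ± 6.60), which overlapped. For Taldo1 the EIPA, IL-1a and 4 mM vehicle libraries overlapped as neighbours, above the low-glutamine vehicle libraries. For Me1 the EIPA and low-glutamine vehicle libraries overlapped, and so did the IL-1a and 4 mM vehicle libraries above them. For Pgls each group overlapped its neighbours.

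EIPA libraries at 0.2 mM were also set against vehicle libraries at 4 mM, a comparison added after the values were seen, in which the drug and the glutamine level cannot be told apart. Over all genes 48.7% were called higher and 28% lower, with a median shift of 0.18, and median-of-ratios scaling gave 4591 genes higher and 4618 lower where the main values gave 6015 and 3460. Of the 7, 2 were called higher and 4 lower, and Taldo1 was not called. Mean TPM in EIPA libraries was 61.6% of that in 4 mM vehicle libraries for Idh1, 69.5% for G6pdx, 70.6% for Me1 and 76.8% for Pgd, all called lower, at -0.70, -0.52, -0.49 and -0.38 on the log2 scale (limma, adjusted p = 6.6e-05, 7.5e-06, 1.4e-06 and 0.0016). Tkt was at 118% and Pgls at 120%, called higher by 0.23 and 0.24 (limma, adjusted p = 1.3e-05 and 0.028), but neither was called under median-of-ratios scaling (adjusted p = 0.32 and 0.59). Pgls was also not called without EIPA replicate 4 (0.17, adjusted p = 0.11), without EIPA replicate 5 (0.18, adjusted p = 0.10) or without 4 mM vehicle replicate 4 (0.22, adjusted p = 0.063). It was likewise not called with mitochondrially encoded genes left out (0.17, adjusted p = 0.12), with no filter on low values (adjusted p = 0.052) or without the 3 libraries that stood apart (adjusted p = 0.052). Taldo1, at 101%, had a difference of 0.01 (limma, adjusted p = 0.91), and under median-of-ratios scaling it was -0.18 and called lower (adjusted p = 0.012).

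The sum over the 7 transcripts was 918 ± 51.8 TPM in EIPA libraries, 580 ± 28.6 TPM in low-glutamine vehicle libraries, 1049 ± 47.1 TPM in IL-1a libraries and 1012 ± 23.2 TPM in 4 mM vehicle libraries (SD, n = 5 each). Its composition differed as well. Pgd made up 22.4% of the sum in EIPA libraries, 14% in low-glutamine vehicle libraries, 26.8% in IL-1a libraries and 26.4% in 4 mM vehicle libraries. Idh1 made up 6.52%, against 3.06% in low-glutamine vehicle libraries, and 9.36% in IL-1a libraries, against 9.68% in 4 mM vehicle libraries. Pgls took 9.84% in EIPA libraries, 16.7% in low-glutamine vehicle libraries, 7.60% in IL-1a libraries and 7.46% in 4 mM vehicle libraries. Tkt took 30.5% in EIPA libraries and 31.3% in low-glutamine vehicle libraries, but 22.8% in IL-1a libraries and 23.5% in 4 mM vehicle libraries. The shares of a sum are tied to each other, and no test was made of them.

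Ratios of transcripts within a library do not depend on the scaling of the library, and their log2 values were compared by a two-sided exact permutation test over every assignment of 10 libraries to groups of 5. The smallest p it allows is 0.0079, and p-values were adjusted over 9 tests. The ratio of Pgd to G6pdx, the dehydrogenases of the oxidative arm, was 3.31 ± 0.16 in EIPA libraries and 1.93 ± 0.07 in low-glutamine vehicle libraries (SD, n = 5 each), without overlap. The log2 difference was 0.78 (exact permutation p = 0.0079, adjusted p = 0.018). It was 2.98 ± 0.45 in IL-1a libraries and 2.99 ± 0.24 in 4 mM vehicle libraries, a log2 difference of -0.02 (exact permutation p = 0.83, adjusted p = 0.92). Between the glutamine levels the log2 difference was -0.63 (exact permutation p = 0.0079, adjusted p = 0.018), again without overlap, so that Pgd had the larger change of these 2 genes in both comparisons.

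The ratio of Tkt to Taldo1, the non-oxidative enzymes, was 1.76 ± 0.19 in EIPA libraries and 1.71 ± 0.14 in low-glutamine vehicle libraries, a log2 difference of 0.04 (exact permutation p = 0.65, adjusted p = 0.84). It was 1.39 ± 0.05 in IL-1a libraries and 1.5 ± 0.06 in 4 mM vehicle libraries, a log2 difference of -0.11 (exact permutation p = 0.016, adjusted p = 0.029). Between the glutamine levels the log2 difference was 0.18 (exact permutation p = 0.024, adjusted p = 0.036). These last 2 differences came from overlapping groups. Neither was called without the 3 libraries that stood apart (exact permutation, adjusted p = 0.086 and 0.071). The glutamine difference was also not called without 4 mM vehicle replicate 1, 4 or 5 (adjusted p = 0.0595 each). Over all alternatives the differences stayed between -0.13 and -0.099 for IL-1a and between 0.14 and 0.22 for glutamine. With those 3 libraries left out the IL-1a test cannot reach as small a p, so its lost call does not show that the difference rests on them.

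The ratio of Me1 to Idh1, the malate and isocitrate enzymes, was 1.02 ± 0.18 in EIPA libraries and 3.09 ± 0.39 in low-glutamine vehicle libraries, a log2 difference of -1.61 (exact permutation p = 0.0079, adjusted p = 0.018). The ratio was 0.876 ± 0.20 in IL-1a libraries and 0.892 ± 0.20 in 4 mM vehicle libraries, a log2 difference of -0.03 (exact permutation p = 0.92, adjusted p = 0.92). Between the glutamine levels the log2 difference was 1.82 (exact permutation p = 0.0079, adjusted p = 0.018). Me1 was at least 2.54 times as abundant as Idh1 in every low-glutamine vehicle library, and the ratio in the other 15 libraries lay between 0.604 and 1.23.

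Ratios of the cytosolic enzymes to their mitochondrial relatives were added after the values were seen and adjusted over 6 tests. The ratio of Idh1 to Idh2, the mitochondrial NADP-dependent isocitrate dehydrogenase, was 1.07 ± 0.20 in EIPA libraries and 0.258 ± 0.02 in low-glutamine vehicle libraries, a log2 difference of 2.03 (exact permutation p = 0.0079, adjusted p = 0.016). It was 0.697 ± 0.07 in IL-1a libraries and 0.728 ± 0.05 in 4 mM vehicle libraries, and between the glutamine levels the log2 difference was -1.5 (exact permutation p = 0.0079, adjusted p = 0.016). The ratio of Me1 to Me2, the mitochondrial malic enzyme that mostly uses NAD, was 1.20 ± 0.08 in EIPA libraries and 0.770 ± 0.10 in low-glutamine vehicle libraries, a log2 difference of 0.65 (exact permutation p = 0.0079, adjusted p = 0.016). The groups did not overlap, although Me1 itself was not called. Between the glutamine levels this ratio differed by -0.17 (exact permutation p = 0.11, adjusted p = 0.17). For IL-1a the log2 difference was -0.07 for Idh1 to Idh2 (exact permutation, adjusted p = 0.46) and -0.01 for Me1 to Me2 (adjusted p = 0.90).

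**Figure D3:**
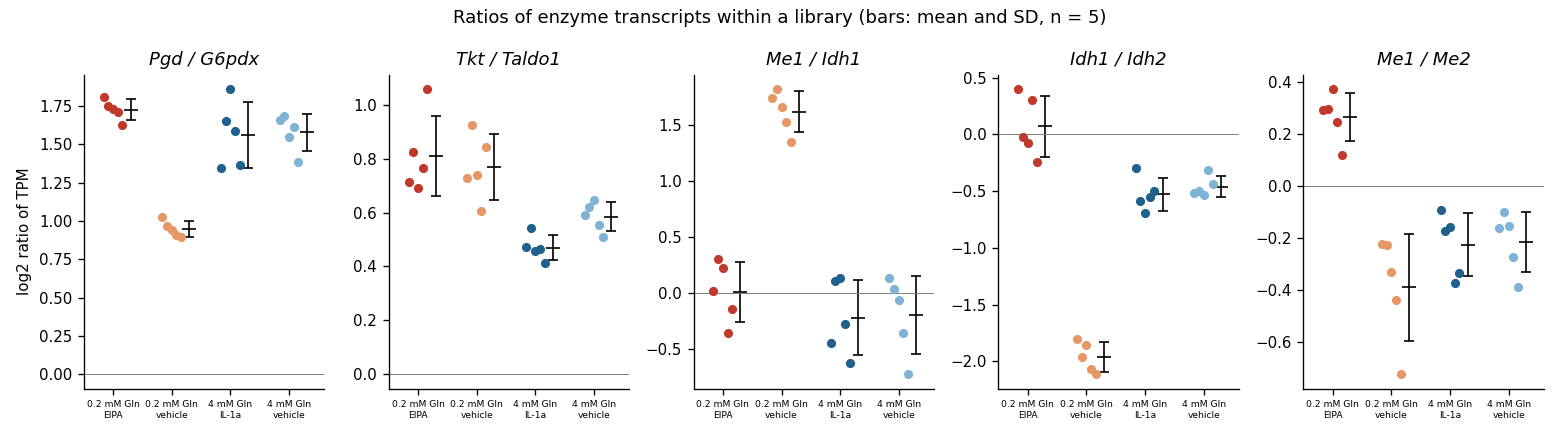
Log2 ratios of the TPM of 5 pairs of enzymes in each library, with the mean and SD of each group of 5 beside the points, and a line at 0 where both transcripts are equally abundant. The low-glutamine vehicle libraries lie apart from the other 3 groups for Pgd to G6pdx, Me1 to Idh1 and Idh1 to Idh2, where their mean log2 ratios are 0.95, 1.62 and -1.96.

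The rest of the pentose phosphate pathway was described with a list of 19 further genes, of which 16 were tested. Tktl1 averaged at most 0.048 TPM in a group, and Tktl2 and G6pd2 were listed at 0 in all 20 libraries. For EIPA, 6 rose, 5 fell and 5 were not called, with a median of 0.01. Between the glutamine levels, 7 were higher at 0.2 mM, 6 were lower and 3 were not called, with a median of 0.18, near the 0.14 of all genes. The shares over all tested genes were 27.4% higher and 21.1% lower for EIPA, and 45.4% higher and 27.9% lower at 0.2 mM. Those that rose with EIPA were H6pd, Tigar, Pgm1, Gpi1, Dera and Xylb, and those that fell were Rpia, Rpe, Shpk, Prps1 and Prpsap2. Under median-of-ratios scaling Xylb was not called (adjusted p = 0.067) and Prps2 was called lower (-0.18, adjusted p = 0.016), so that 5 were higher and 6 lower. H6pd, the dehydrogenase that does the work of G6pdx in the endoplasmic reticulum, averaged 56.8 ± 4.82 TPM in EIPA libraries and 33.7 ± 4.84 TPM in low-glutamine vehicle libraries (SD, n = 5 each), a rise of 0.74 ± 0.11 (limma, adjusted p = 1.8e-05). It was lower at 0.2 mM, at -1.51, or -1.64 relative to the median gene. Gpi1, which exchanges glucose 6-phosphate for fructose 6-phosphate, rose by 0.46 ± 0.05 with EIPA and was lower at 0.2 mM, at -1.33 relative to the median gene. Pgm1, the phosphoglucomutase, rose by 0.46 ± 0.05 with EIPA and was lower at 0.2 mM, at -1.36 in the same terms. Dera, the deoxyribose-phosphate aldolase, rose by 0.24 ± 0.07 with EIPA and was lower at 0.2 mM, at -0.82 relative to the median gene.

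Among those that fell with EIPA, Rpia, the ribose-5-phosphate isomerase, averaged 48.9 ± 4.67 TPM in EIPA libraries and 55.9 ± 6.06 TPM in low-glutamine vehicle libraries, a log2 difference of -0.19 ± 0.08 (limma, adjusted p = 0.043). Its 4 mM vehicle mean was 22.5 ± 0.74 TPM, so that it was higher at 0.2 mM by 1.27 ± 0.08, or 1.13 relative to the median gene (limma, adjusted p = 5.4e-12). Rpe, the ribulose-phosphate epimerase, fell by 0.16 ± 0.06 with EIPA and was higher by 0.44 at 0.2 mM relative to the median gene. Shpk, the sedoheptulokinase, fell by 0.33 ± 0.12 with EIPA and was higher by 0.67 at 0.2 mM relative to the median gene. Prps1, which makes the ribose donor for nucleotides, fell by 0.67 ± 0.06 with EIPA and was higher by 0.33 at 0.2 mM relative to the median gene. Tigar, a fructose bisphosphatase that diverts sugar to the pathway, was called higher by 0.29 ± 0.09 with EIPA and by 0.50 at 0.2 mM relative to the median gene.

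**Figure D4:**
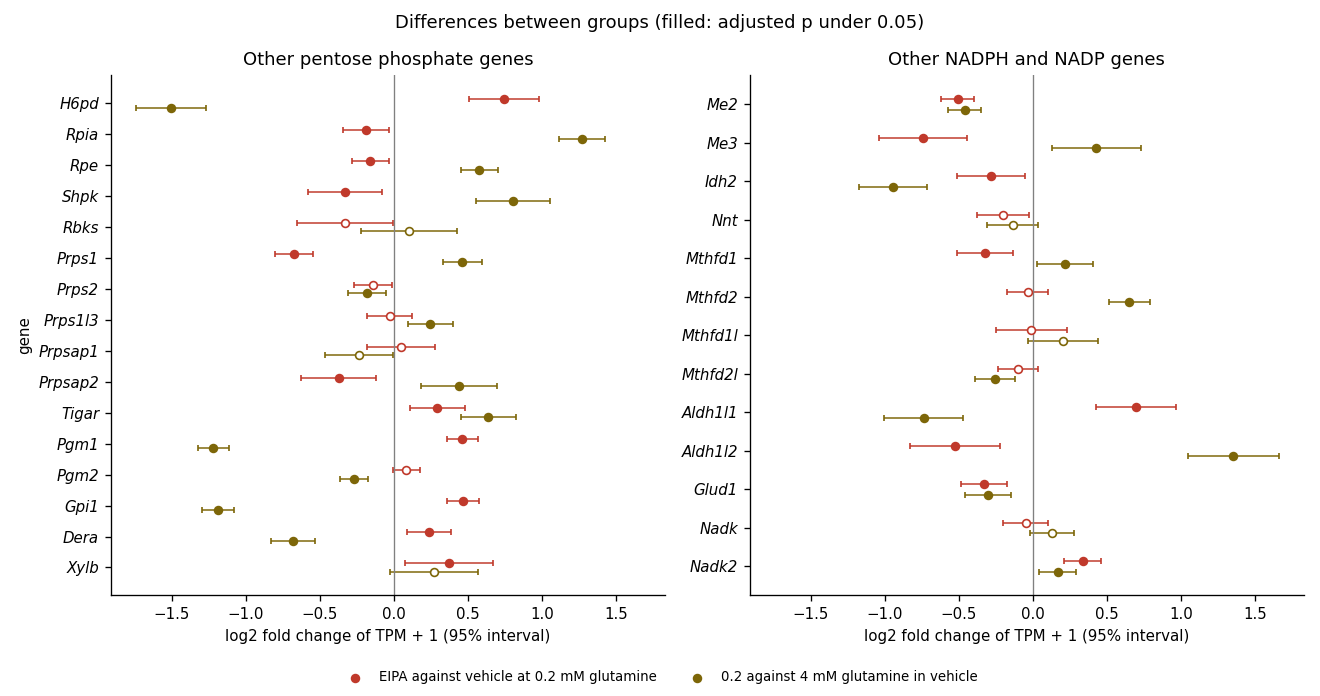
Log2 fold changes of TPM + 1 with 95% intervals for the tested genes of the 2 lists of further pentose phosphate genes (left) and further NADPH and NADP genes (right), with filled points called at an adjusted p under 0.05. H6pd, Pgm1 and Gpi1 lie to the right for EIPA (0.74, 0.46 and 0.46) and far to the left for glutamine, and Rpia and Aldh1l2 lie far to the right for glutamine (1.27 and 1.36).

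Of 13 other genes that make or handle NADP and NADPH, mostly mitochondrial or of folate metabolism, all were tested. With EIPA, 2 rose, 6 fell and 5 were not called, with a median of -0.20, and under median-of-ratios scaling 2 rose and 7 fell. At 0.2 mM glutamine, 5 were higher, 5 lower and 3 not called, and under median-of-ratios scaling 3 were higher and 6 lower. Over all tested genes 27.4% were higher and 21.1% lower with EIPA, and 45.4% higher and 27.9% lower at 0.2 mM. Idh2 averaged 57.0 ± 9.36 TPM in EIPA libraries and 69.2 ± 8.84 TPM in low-glutamine vehicle libraries (SD, n = 5 each), a log2 difference of -0.28 ± 0.11 (limma, adjusted p = 0.042). Its 4 mM vehicle mean was 134 ± 18.0 TPM, and it was lower at 0.2 mM, at -1.08 relative to the median gene. Idh1 rose with EIPA where Idh2 fell. Me2 fell by 0.51 ± 0.05 with EIPA and was lower at 0.2 mM, at -0.46, or -0.60 relative to the median gene. Aldh1l2, the mitochondrial formyltetrahydrofolate dehydrogenase, averaged 101 ± 15.7 TPM in EIPA libraries, 146 ± 17.9 TPM in low-glutamine vehicle libraries and 56.9 ± 12.6 TPM in 4 mM vehicle libraries. It fell by 0.53 ± 0.15 with EIPA (limma, adjusted p = 0.0055) and was higher by 1.22 at 0.2 mM relative to the median gene. Mthfd2, of the same mitochondrial folate pathway, was higher by 0.52 at 0.2 mM relative to the median gene. With EIPA, Mthfd2 had a difference of -0.03 ± 0.07, which was not called (limma, adjusted p = 0.70). Nadk, the cytosolic kinase that makes NADP from NAD, was called in neither comparison, and the mitochondrial Nadk2 rose by 0.34 ± 0.06 with EIPA.

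Of 25 genes whose enzymes use NADPH, 24 were tested. With EIPA, 21 rose, 2 fell and 1 was not called, with a median of 0.75, and at 0.2 mM glutamine 5 were higher, 15 lower and 4 not called, with a median of -0.65. Under median-of-ratios scaling, 20 rose and 2 fell with EIPA, and 4 were higher and 16 lower at 0.2 mM. For this list and the 2 that follow, the shares over all tested genes were 27.4% higher and 21.1% lower with EIPA. At 0.2 mM they were 45.4% higher and 27.9% lower. Cyp51, the lanosterol demethylase of cholesterol synthesis, rose by 2.95 ± 0.10 (limma, adjusted p = 4.6e-15). Pycr1, which makes proline, fell by 0.92 ± 0.14, and Aldh18a1, also of proline synthesis, was not called at -0.02 ± 0.10. Lists of NRF2 and SREBP targets, which share 5 and 3 genes with that list, moved as follows. All 18 NRF2 targets rose with EIPA, with a median of 0.50, led by p-value by Osgin1 (2.53 ± 0.15) and Cbr1 (0.70 ± 0.07), and 17 did so under median-of-ratios scaling, where Hmox1 was not called. At 0.2 mM, 5 were higher and 11 lower. All 19 SREBP targets rose with EIPA, with a median of 2.21, among them Idi1 (3.56 ± 0.09), and 18 of them did so with mitochondrially encoded genes left out. At 0.2 mM all 19 were lower. In IL-1a against vehicle, limma called 0 genes in any of these 5 lists and 0.283% of all tested genes. At an unadjusted p under 0.05 only 2 further pentose phosphate genes of these lists passed, both higher.

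Genes whose pattern over the 20 libraries was most like each of the 7 were found by the root mean square difference of centred log2(TPM + 1) among 10034 genes of at least 5 TPM on average. This is a description over samples that share their group. For G6pdx they were the two-pore channel gene Tpcn1 (0.11) and Gpi1 (0.13), and for Pgls Apopt1 (0.10) and Trub2 (0.11). For Pgd they were the tetraspanin gene Cd9 (0.20) and the lipoprotein receptor gene Lrp8 (0.21). Lrp8 averaged 22.8 TPM in EIPA libraries, 7.37 TPM in low-glutamine vehicle libraries, 24.7 TPM in IL-1a libraries and 25.1 TPM in 4 mM vehicle libraries. For Tkt they included Pwwp3a (0.06), for Taldo1 they were the ribosomal protein gene Rpl41 (0.10) and Mast4 (0.10), and for Me1 the proteasome gene Psma3 (0.07) and Sipa1l1 (0.08). For Idh1 the distances were larger, 0.26 for the kinase gene Map2k6 and 0.28 for Slc25a1, the mitochondrial citrate carrier. Slc25a1 averaged 62.1 TPM in EIPA libraries, 26.8 TPM in low-glutamine vehicle libraries, 99.1 TPM in IL-1a libraries and 94.5 TPM in 4 mM vehicle libraries.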

How the data were processed

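RNA was sequenced from 20 libraries of polyadenylated RNA, 5 in each of 4 groups, with reads of 75 bases from both ends, per the labels' protocols. The deposited values are TPM made by the authors for 32285 genes, with 2 decimals. Per the submitters' processing notes RSEM and mm10 were used, without versions, and for the aligner and the annotation the sources used here name nothing. No column was left unused. The table keeps no depth, so no counting interval or floor can be given, and an exact 0 is written as listed at 0. EIPA is given as 25 uM in the titles and in another unit in the treatment protocol, and the titles' value is used.

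The log2(TPM + 1) values of the 12350 genes that reached 1 TPM in 5 or more libraries were fitted in limma 3.58.1 (R 4.3.3), with a model of the 4 groups over 20 libraries and an intensity trend. Benjamini-Hochberg adjustment ran over all 12350 genes, and an adjusted p under 0.05 was called. Ratios of 2 genes were compared by exact permutation. Fold changes on the log2(TPM + 1) scale understate those of genes of low level. The script was tested on simulated data. Gene positions are those of GENCODE M21 (GRCm38), counted from 1.

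The members, gene lists and rules were chosen with earlier results of these data known. Named genes were the 7 members, any of the 2 lists of further pathway genes, of the other 3 lists the 2 with the smallest p for EIPA and those of deviating direction, and the 2 genes most like each member. Some of the genes these rules pick do not appear here. Hmox1, Ccn1 and the markers named were chosen after their values were seen. Alternatives were another pseudocount (0.1), no filter or a mean of at least 5 TPM, median-of-ratios scaling, mitochondrial genes left out, no intensity trend, a replicate block, only the libraries compared, 3 libraries left out, and each replicate left out in turn.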

Additional observations from a re-analysis of the deposited data

Results flagged for a closer look

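Single libraries stood out from their group of 5 in 4 of the 28 combinations of gene and group that were examined, where chance gives about 1 in 20. G6pdx in EIPA replicate 4 was 67.96 TPM, above 59.12 to 61.53 TPM in the other 4 libraries. G6pdx in low-glutamine vehicle replicate 5 was 31.16 TPM, below 42.52 to 46.14 TPM in the other 4, and Pgd in the same library was 57.87 TPM, below 81.73 to 93.67 TPM. Pgls in IL-1a replicate 3 was 99.07 TPM, above 72.65 to 78.39 TPM in the other 4. In each, the gap to the nearest library exceeded 0.71 of the group's range, Dixon's 95% critical value for 5 samples. Gap and range were taken on log2(TPM + 1) and not on the TPM printed here, and the gap of Pgd was 0.716 of the range. Over the 18 alternatives run for EIPA against vehicle, which include leaving out EIPA replicate 4 and low-glutamine vehicle replicate 5, the log2 difference stayed between 0.46 and 0.60 for G6pdx and between 1.23 and 1.40 for Pgd, and both were called each time.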

How the results depend on the processing

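The number of the 7 genes called kept within 1.5 times of its value under every alternative that was run. That number does not show which genes were called or in which direction. In EIPA at 0.2 mM against vehicle at 4 mM these changed under median-of-ratios scaling, where Tkt and Pgls were not called and Taldo1 was called lower. The genes called for IL-1a numbered 35, or 19 with only the 10 libraries of the comparison. Differences for IL-1a that were not called changed sign in places. Tkt was -0.0070 under median-of-ratios scaling and -0.00051 with mitochondrial genes left out, and leaving out each replicate gave -0.015 to 0.020 for Tkt, -0.0052 to 0.11 for Pgls, -0.081 to 4.6e-05 for Me1 and -0.083 to 0.075 for Idh1. It gave -0.090 to 0.039 for the log2 ratio of Pgd to G6pdx, -0.16 to 0.075 for Me1 to Idh1 and -0.053 to 0.027 for Me1 to Me2. Without the 3 libraries that stood apart, Pgd to G6pdx differed by 0.073 and Me1 to Idh1 by 0.052 for IL-1a, and Tkt to Taldo1 by -0.12 for IL-1a and by 0.16 for glutamine, no longer called. Leaving out each replicate gave -0.020 to 0.081 for Tkt to Taldo1 under EIPA, and 0.14 to 0.22 for glutamine. In the comparison of EIPA at 0.2 mM with vehicle at 4 mM, Taldo1 was -0.18 under median-of-ratios scaling and -0.066 with mitochondrial genes left out, and -0.022 to 0.067 with each replicate left out. The cause was not tested.

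Replicate numbers were not taken to pair the libraries, because not every correlation of same-numbered deviations was over 0.1. They were 0.06 to 0.32 for EIPA, -0.28 to 0.60 for IL-1a and 0.05 to 0.17 for glutamine, and 4 of 5 libraries for EIPA, 2 of 5 for IL-1a and 4 of 5 for glutamine correlated best with their own number, a hint from the data and not from the design. With the replicate block, Me1 for EIPA was called at 0.14 (limma, adjusted p = 0.010). Under a sign-flip test of paired ratios the smallest possible p is 0.0625. Unknown depth limits the statements on genes of a few TPM.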
